A study of Mus musculus with 8 samples.

Results

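The genes described here are the 10 named components of the MHC class I antigen presentation route that were chosen by symbol (H2-K1, H2-D1, B2m, Tap1, Tap2, Tapbp, Psmb8, Psmb9, Psmb10 and Nlrc5), out of 54532 genes listed in the expression files, and all 10 were matched to an Ensembl identifier. They were measured by RNA sequencing in 4T1, a triple-negative mammary tumor cell line derived from a BALB/c mouse. All libraries came from cultures grown with 10% fetal bovine serum and 6 µg/ml puromycin, and the cells stably carried either a scramble shRNA or a single shRNA against MCT-1 (gene symbol Mcts1), so the knockdown cannot be told apart from other differences between these transfected lines. Each background was exposed for 48 h to control IgG or to an anti-mouse IL-6R antibody at 100 ng/ml, which gave 4 groups of 2 libraries each, named here by background and antibody (shMCT-1 + anti-IL-6R, for example). Nothing in the labels says that replicates came from separate cultures, so p-values measure the spread between these libraries, which may be technical.

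MHC class I molecules display peptides from inside the cell to CD8+ T cells. Proteasomes cut cytosolic proteins, and the immunoproteasome does so with the exchanged catalytic subunits encoded by Psmb8, Psmb9 and Psmb10. The TAP1-TAP2 transporter carries the peptides into the endoplasmic reticulum, where tapasin, encoded by Tapbp, bridges the transporter to a heavy chain (H2-K1 or H2-D1) paired with β2-microglobulin (B2m). Nlrc5 encodes a transactivator that acts on class I promoters through the X and Y boxes, and interferon-γ is the best known inducer of the route; loss of its components is a common way for tumor cells to escape T cells.

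The upstream sequences of the heavy chain and B2m genes are shown first, since these promoters hold the elements through which the route is known to be regulated. RefSeq windows of 300 bases (250 before to 50 after each gene's start, GRCm38.p6) were found for 8 of the 10 genes, all but Tap2 and Nlrc5. Capitals mark matches on either strand to 5 patterns: an interferon-stimulated response element (ISRE, searched as GAAA, NN, GAAA), an interferon-γ activated site (GAS, TTCNNNGAA), an NF-kB pattern (GGG, NNNNN, CC), the X2 box (TGACG) and the Y box (ATTGG). The bases before the start of H2-K1 (chr17:34000348-34000597, minus strand) and of B2m (chr2:122147437-122147686, plus strand) read:
H2-K1: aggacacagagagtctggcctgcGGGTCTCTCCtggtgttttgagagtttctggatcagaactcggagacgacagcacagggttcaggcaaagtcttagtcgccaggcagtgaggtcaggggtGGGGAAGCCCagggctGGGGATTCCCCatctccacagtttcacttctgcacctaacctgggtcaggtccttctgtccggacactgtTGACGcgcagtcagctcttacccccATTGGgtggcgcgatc
B2m: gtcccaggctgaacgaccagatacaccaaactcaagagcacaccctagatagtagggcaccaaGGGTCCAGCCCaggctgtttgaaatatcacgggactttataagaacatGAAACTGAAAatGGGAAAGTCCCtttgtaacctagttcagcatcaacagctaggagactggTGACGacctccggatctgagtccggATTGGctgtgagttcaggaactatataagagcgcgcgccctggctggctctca
The H2-K1 stretch held adjoining NF-kB matches and an X2 box followed by a Y box, and the B2m stretch held an ISRE beside an NF-kB match, then an X2 box and a Y box. In an ungapped alignment, 166 of 190 bases upstream of H2-K1 and H2-D1 were identical (87.4%). Short stretches of 30 bases that lie in exons annotated for some transcripts are shown for H2-D1 (chr17:35262923-35262952 and chr17:35262993-35263022), Tap1 (chr17:34187466-34187495) and Psmb8 (chr17:34198087-34198116), all on the plus strand, because they carry the NF-kB match, the X2 and Y boxes, the pair of X2 and NF-kB matches, and the only GAS match among the members:
H2-D1 (NF-kB): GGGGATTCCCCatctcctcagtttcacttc
H2-D1 (X2 and Y): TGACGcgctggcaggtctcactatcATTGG
Tap1 (X2 and NF-kB): caggTGACGacagaGGGTCCTGCCCtcaat
Psmb8 (GAS): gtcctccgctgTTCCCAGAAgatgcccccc
The ISRE pattern was found in 1 of 8 members (B2m) and in 3.44% of 32851 windows of all genes, and the GAS pattern in 1 of 8 (Psmb8) and 8.30%. The NF-kB pattern was in 5 of 8 members and in 50.8% of all windows, the X2 box in 5 of 8 and 20.8%, and the Y box in 6 of 8 and 37.4%. H2-K1, H2-D1, B2m, Tap1 and Psmb9 held the last 3 patterns together, as did 4.46% of all windows; this combination was picked after the matches were seen, and the Tap1 and Psmb9 windows overlap because these genes start head to head. A match is a description of letters and not a binding site. The fixed letters of a pattern allowed no mismatch, so a window without a match may still hold a variant of that element.

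The libraries held 19839255 to 33063535 counts, so that a level of 1 CPM (counts scaled to the library total, written per 1000000 counts) stood for 19.84 to 33.06 counts, and every shMCT-1 library (at most 23448547) was smaller than every scramble library (at least 24100056). Mcts1 was at 11.8 to 15.4 CPM in the scramble libraries and at 4.92 to 6.70 CPM in the shMCT-1 libraries, with log2 fold changes of -1.08 (SE 0.17) within IgG and -1.13 (SE 0.17) within anti-IL-6R. Of 6 mammary epithelial markers 5 exceeded 1 CPM (Krt5 was at 0), and their sum was 2033 to 2174 CPM in scramble and 2577 to 2782 CPM in shMCT-1, with Epcam at 3.75 to 4.93 and 49.4 to 54.5 CPM; the part of this difference in the results was not tested. Of 10 leukocyte markers none exceeded 1 CPM, 4 were at 0 in every library, and their sum was 0.640 to 1.04 CPM in scramble and 0.554 to 1.19 CPM in shMCT-1. Endothelial markers summed to 0.0960 to 0.332 CPM in scramble and 0.554 to 1.82 CPM in shMCT-1, of which Cdh5 reached 1.46 CPM; their part in the results was not tested. Among fibroblast markers only Pdgfra exceeded 1 CPM, at up to 16.7 CPM.

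Most of the class I genes were higher in shMCT-1 cells than in scramble cells, in IgG and in anti-IL-6R; Psmb10 was not called within anti-IL-6R, and Psmb9 had too few reads to test. Within IgG, heavy chains, B2m, Tap2 and Tapbp rose 1.32-fold to 1.70-fold, and Tap1 and Nlrc5 rose 2.13-fold and 2.06-fold. Psmb8 went from at most 0.145 CPM (4 counts) in scramble + IgG to 5.50 and 5.77 CPM in shMCT-1 + IgG. In bulk RNA, more cells expressing a gene and more RNA per cell cannot be told apart. A gene was tested when it exceeded 1 CPM in at least 2 libraries (12704 genes) and called when its edgeR quasi-likelihood p, adjusted over all tested genes, was under 0.05. Of the 9 tested members 9 were called higher within IgG, where 28.3% of all tested genes were, and 8 within anti-IL-6R, where 26.9% were; none was called lower (26.2% and 27.3% of all tested genes were). Psmb9 was not tested, and Psmb8 passed the filter only through the shMCT-1 libraries, so the count over the 8 members above 1 CPM in both backgrounds is the fairer one: 8 within IgG and 7 within anti-IL-6R. The median log2 fold change of those 8 was 0.68 and 0.58, beside a median of 0.01 in both comparisons over all tested genes. Many tested genes differed between the backgrounds (54.4% were called in either direction within IgG and 54.3% within anti-IL-6R), and no claim is made that the members as a list stand apart. The counts that include Psmb8 did not change when every library was thinned to the smallest total (9 and 8).

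**Figure D1:**
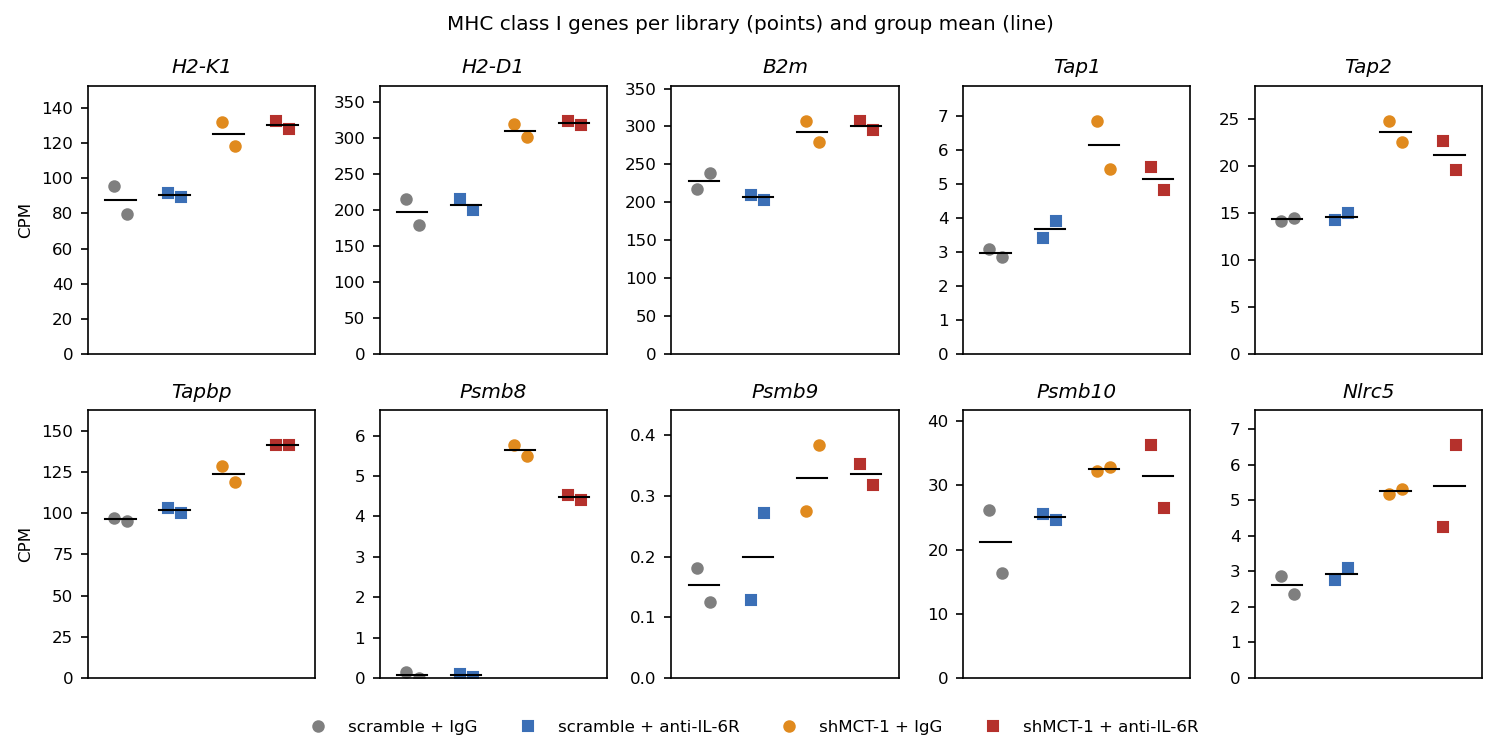
Level in CPM (linear axis from 0) of each of the 10 genes in each of the 8 libraries; points are libraries and the black line is the mean of the 2 libraries of a group. The 4 shMCT-1 libraries lie above the 4 scramble libraries for the 8 genes above 1 CPM in both backgrounds, narrowly so for Psmb10. Of all tested genes 33% did the same. Psmb8 was admitted through its shMCT-1 libraries alone. For Psmb9 the nearest points (0.272 CPM in scramble, 0.275 CPM in shMCT-1) stand for 9 and 6 counts, and no separation is read. The IgG and anti-IL-6R points of 1 background lie close together.

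H2-K1 and H2-D1 encode the classical heavy chains that hold the peptide. H2-K1 (17:33996017-34000347, minus strand) stood at 95.5 and 79.5 CPM in scramble + IgG, 91.5 and 89.2 CPM in scramble + anti-IL-6R, 132 and 118 CPM in shMCT-1 + IgG, and 133 and 128 CPM in shMCT-1 + anti-IL-6R. The lowest shMCT-1 library thus lay above the highest scramble library, with a log2 fold change of 0.56 (SE 0.10, edgeR adjusted p = 0.00121) within IgG and 0.58 (SE 0.10, adjusted p = 0.000968) within anti-IL-6R. H2-D1 (17:35262730-35267499, plus strand) measured 215 and 179 CPM in scramble + IgG, 215 and 200 CPM in scramble + anti-IL-6R, 319 and 301 CPM in shMCT-1 + IgG, and 324 and 318 CPM in shMCT-1 + anti-IL-6R. Its groups were also separate between backgrounds, and it rose by 0.70 (SE 0.10, adjusted p = 0.000306) and 0.68 (SE 0.10, adjusted p = 0.000336) on the log2 scale. When single libraries were left out, the change within IgG ran from 0.45 to 0.68 for H2-K1 and from 0.59 to 0.81 for H2-D1. These genes have near-identical relatives, their deposited counts were fractional in 8 of 8 libraries, and BALB/c carries another H2 haplotype than the C57BL/6 reference, so how the reads were divided among heavy chains is uncertain. Summed over the 17 H2 heavy chain genes, which does not depend on the division among them, the level was 337 to 395 CPM in scramble and 531 to 567 CPM in shMCT-1, which gave a change of 0.63 (SE 0.09, adjusted p = 0.000409) on the log2 scale within IgG and 0.60 (SE 0.09, adjusted p = 0.000538) within anti-IL-6R.

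B2m encodes the invariant light chain without which heavy chains do not reach the surface stably. Unlike most members it is outside the MHC, on chromosome 2 (2:122147686-122153083, plus strand). It was at 218 and 239 CPM in scramble + IgG, 210 and 204 CPM in scramble + anti-IL-6R, 307 and 279 CPM in shMCT-1 + IgG, and 307 and 295 CPM in shMCT-1 + anti-IL-6R. All shMCT-1 libraries were higher than all scramble libraries, by a log2 fold change of 0.40 (SE 0.09, edgeR adjusted p = 0.00457) within IgG and 0.60 (SE 0.09, adjusted p = 0.000526) within anti-IL-6R. The 1001 tested genes of chromosome 2 had median log2 fold changes of -0.36 in both comparisons, so B2m moved against the bulk of its chromosome.

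Tap1 and Tap2 encode the 2 subunits of the peptide transporter and lie on either side of Psmb8 in the MHC (17:34187553-34197225 and 17:34203527-34216321, both plus strand). Tap2 was the more abundant and the tighter, with 14.1 and 14.5 CPM in scramble + IgG, 14.3 and 14.9 CPM in scramble + anti-IL-6R, 24.8 and 22.5 CPM in shMCT-1 + IgG, and 22.6 and 19.6 CPM in shMCT-1 + anti-IL-6R. It rose by a log2 fold change of 0.77 (SE 0.11, edgeR adjusted p = 0.000402) within IgG and 0.59 (SE 0.11, adjusted p = 0.00174) within anti-IL-6R. Tap1 was at 3.09 and 2.86 CPM in scramble + IgG, 3.42 and 3.93 CPM in scramble + anti-IL-6R, 6.87 and 5.46 CPM in shMCT-1 + IgG, and 5.49 and 4.83 CPM in shMCT-1 + anti-IL-6R. The backgrounds did not overlap, but they came closer under anti-IL-6R: Tap1 rose by a log2 fold change of 1.09 (SE 0.20, adjusted p = 0.00138) within IgG and 0.54 (SE 0.19, adjusted p = 0.0382) within anti-IL-6R. The latter call was lost without scramble + anti-IL-6R replicate 1 (0.45), scramble + anti-IL-6R replicate 2 (0.64) or shMCT-1 + anti-IL-6R replicate 1 (0.46), and in DESeq2 (adjusted p = 0.0872). The difference between the Tap1 effects was itself not called, with an interaction of -0.55 (SE 0.28, unadjusted p = 0.0777, adjusted p = 1.00). Tap1 and Psmb9 overlap on opposite strands, and reads of their shared bases may be divided wrongly.

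Tapbp encodes tapasin, the chaperone that holds empty heavy chains at the transporter (17:33915899-33929292, plus strand). Its levels were 97.4 and 95.3 CPM in scramble + IgG, 103 and 100.3 CPM in scramble + anti-IL-6R, 129 and 119 CPM in shMCT-1 + IgG, and 141 and 141 CPM in shMCT-1 + anti-IL-6R. It rose by a log2 fold change of 0.41 (SE 0.08, edgeR adjusted p = 0.00209) within IgG and 0.53 (SE 0.08, adjusted p = 0.000478) within anti-IL-6R, without overlap between backgrounds. Tapbp overlaps Zbtb22 on the same strand, a gene at 38.3 to 47.8 CPM, and the Tapbp counts were fractional in 8 of 8 libraries.

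**Figure D2:**
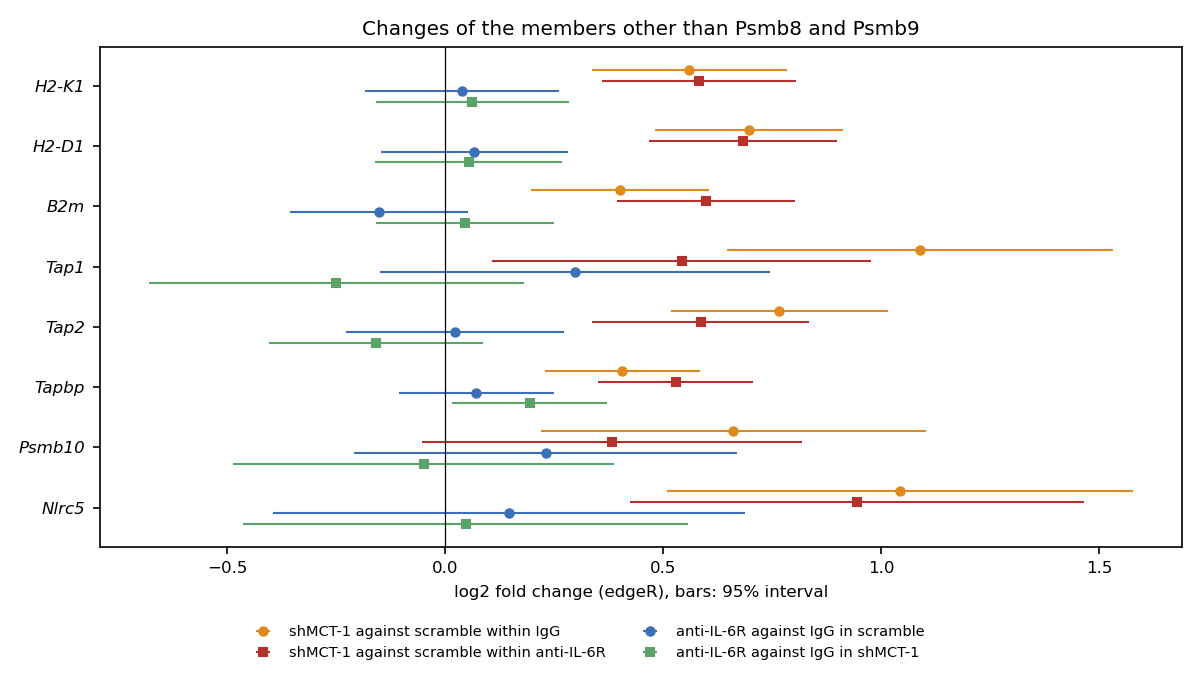
The log2 fold change (horizontal axis) of the 8 genes above 1 CPM in both backgrounds, in the 2 shMCT-1 against scramble comparisons and the 2 anti-IL-6R against IgG comparisons; points are edgeR estimates and bars 95% intervals. For shMCT-1 the estimates run from 0.38 to 1.09 and only the Psmb10 interval within anti-IL-6R spans 0, while for anti-IL-6R the intervals span 0 except that of Tapbp in shMCT-1 cells.

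The immunoproteasome subunits behaved unequally. Psmb8 (LMP7, 17:34197721-34201454, plus strand) was close to undetected in scramble cells, with 4 and 0 counts in scramble + IgG and 3 and 1 in scramble + anti-IL-6R (0.145, 0, 0.0960 and 0.0302 CPM). In shMCT-1 cells it reached 5.77 and 5.50 CPM with IgG and 4.54 and 4.42 CPM with anti-IL-6R, far above every scramble library. With so few scramble reads the ratio of CPM is given with its counting interval: 255 counts against 4 within IgG, a ratio of 72.7 (95% interval 28 to 269), and 187 against 4 within anti-IL-6R, a ratio of 71.9 (27.6 to 267). The interval covers counting error only, and all 4 scramble + IgG counts came from replicate 1. The fitted log2 fold change within IgG was 10.2 without that library and 5.29 without replicate 2, and within anti-IL-6R it was 7.04 without scramble + anti-IL-6R replicate 1 and 5.51 without replicate 2, so the size of the change is poorly fixed. Psmb8 was admitted to the edgeR test through its shMCT-1 libraries alone, and its adjusted p is therefore not given as support.

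Psmb9 (LMP2, 17:34181987-34187764, minus strand) lies on the other side of Tap1 and stayed at trace level in all libraries: 0.182 and 0.124 CPM in scramble + IgG, 0.128 and 0.272 CPM in scramble + anti-IL-6R, 0.275 and 0.384 CPM in shMCT-1 + IgG, and 0.353 and 0.319 CPM in shMCT-1 + anti-IL-6R. This corresponds to 15 counts in shMCT-1 against 8 in scramble within IgG, a CPM ratio of 2.14 (95% counting interval 0.851 to 5.82), and 14 against 13 within anti-IL-6R, a ratio of 1.66 (0.722 to 3.83). A difference in Psmb9 was not detectable at this depth. Psmb10 (MECL-1, on chromosome 8 at 105935735-105938444, minus strand) was expressed in both backgrounds, at 26.1 and 16.3 CPM in scramble + IgG, 25.6 and 24.5 CPM in scramble + anti-IL-6R, 32.3 and 32.9 CPM in shMCT-1 + IgG, and 36.3 and 26.5 CPM in shMCT-1 + anti-IL-6R. Its backgrounds were separated only narrowly, and its log2 fold change was 0.66 (SE 0.20, edgeR adjusted p = 0.0172) within IgG and 0.38 (SE 0.19, 95% interval -0.05 to 0.82, adjusted p = 0.122) within anti-IL-6R. Within IgG the call rested on the low scramble + IgG replicate 2, without which the value was 0.38 (adjusted p = 0.104), and it was also lost without shMCT-1 + IgG replicate 1 (0.68) or replicate 2 (0.65), while without scramble + IgG replicate 1 the value was 1.02. Within anti-IL-6R a call was gained without shMCT-1 + anti-IL-6R replicate 2 (0.61, adjusted p = 0.0324), without either scramble + IgG library (adjusted p = 0.0450 and 0.0441), with no filter on low counts (0.00753) and with edgeR's exact test (0.0440), whereas without shMCT-1 + anti-IL-6R replicate 1 the value fell to 0.15 (adjusted p = 0.590).

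Each immunoproteasome subunit replaces a constitutive partner (Psmb8 for Psmb5, Psmb9 for Psmb6, Psmb10 for Psmb7), so the pairs were compared as RPKM ratios, with 0.5 count added to both. Psmb8 was at 0.0136% to 0.0899% of Psmb5 in the 4 scramble libraries and at 1.39% to 1.87% in the 4 shMCT-1 libraries. The mean log2 difference was 5.47. No scramble library held more than 4 Psmb8 counts, and the lowest scramble ratio comes from the added 0.5 on a library with 0 counts. The separation was already plain in those counts, so the permutation p of this ratio is not given as support. Psmb10 was at 8.43% to 12.9% of Psmb7 in scramble and 14.6% to 18% in shMCT-1, a log2 difference of 0.53. Its exact two-sided permutation p was 0.0286, the smallest that 4 against 4 allows. Adjusted over 3 ratios it was 0.0429, but this adjusted value depends on the equally small p of the Psmb8 ratio and is not given as support. The Psmb9 to Psmb6 ratio was 0.0704% to 0.145% in scramble and 0.103% to 0.132% in shMCT-1, and these ranges overlapped (log2 difference 0.37, exact permutation p = 0.257). Even in shMCT-1 cells, transcripts of Psmb8 and Psmb9 were thus few beside those of their constitutive partners. These tests pool both treatments, and leaving out any single library raised the smallest reachable p to 0.0571.

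**Figure D3:**
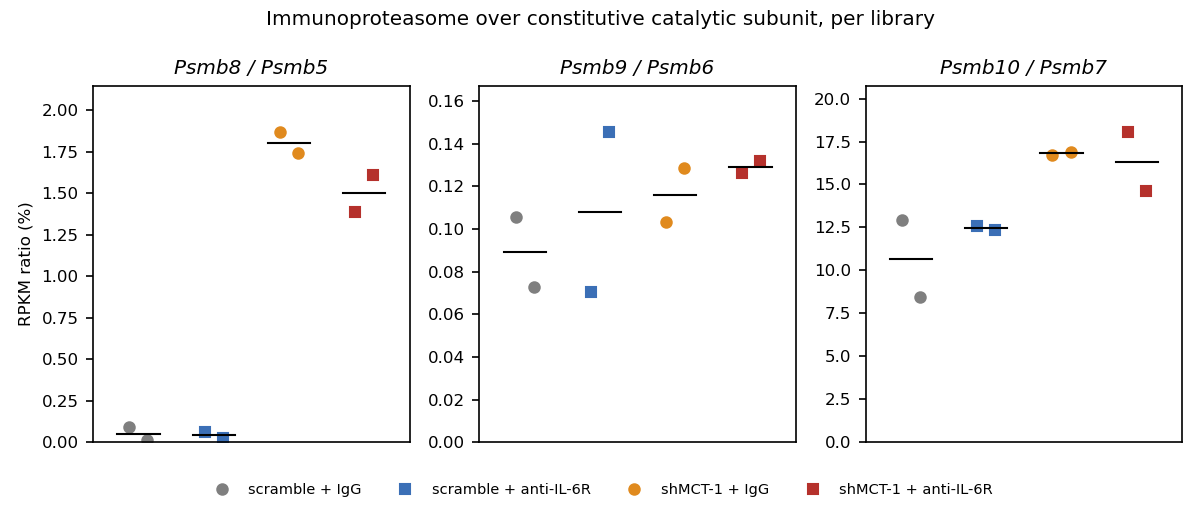
RPKM of each immunoproteasome subunit as a percent of that of its constitutive partner (linear axes from 0, which differ between panels), per library; points are libraries and lines the means of 2. The Psmb8 to Psmb5 ratio is below 0.0900% in every scramble library and at least 1.39% in every shMCT-1 library, whereas the Psmb9 to Psmb6 ratios overlap.

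Nlrc5, the class I transactivator, is a long gene on chromosome 8 (94434356-94527272, plus strand) and was expressed at a low level: 2.87 and 2.37 CPM in scramble + IgG, 2.75 and 3.08 CPM in scramble + anti-IL-6R, 5.17 and 5.33 CPM in shMCT-1 + IgG, and 4.23 and 6.56 CPM in shMCT-1 + anti-IL-6R. All shMCT-1 libraries were above all scramble libraries. The log2 fold change was 1.04 (SE 0.24, edgeR adjusted p = 0.00468) within IgG and 0.94 (SE 0.23, adjusted p = 0.00699) within anti-IL-6R, but the latter fell just short of the call without scramble + anti-IL-6R replicate 1 (0.87, adjusted p = 0.0514) or without shMCT-1 + anti-IL-6R replicate 2 (0.61, adjusted p = 0.0509).

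In a comparison pooled over both treatments the 8 members above 1 CPM in both backgrounds were called higher (35% of all tested genes were), with a median log2 fold change of 0.62. The 4 shMCT-1 libraries lay above the 4 scramble libraries for each of these 8, a pattern that 33% of the tested genes shared. Levels of different genes were compared as RPKM. B2m was the highest member in both backgrounds (237 to 278 RPKM in scramble and 324 to 357 in shMCT-1), followed by H2-D1 (85.4 to 102 and 143 to 154), H2-K1 (27 to 32.5 and 40.3 to 45.1), Tapbp (26.3 to 28.5 and 32.9 to 39.0), Psmb10 (12.4 to 19.9 and 20.2 to 27.7) and Tap2 (4.11 to 4.34 and 5.69 to 7.19). H2-K1 and Tapbp overlapped in scramble cells, the only neighbours in either order to do so. Psmb8 (0 to 0.0893 RPKM) and Psmb9 (0.0921 to 0.201) were the lowest in scramble. They rested on 0 to 4 and 3 to 9 counts a library, so their order is not read. In shMCT-1, Psmb8 (2.71 to 3.54) exceeded Tap1 (0.881 to 1.25), Nlrc5 (0.559 to 0.865) and Psmb9 (0.203 to 0.284). Its place above Tap1 and Nlrc5 rests on the transcript lengths used (1628 bases against 5476 and 7578). In CPM, Psmb8 (4.42 to 5.77) overlapped Tap1 (4.83 to 6.87) and Nlrc5 (4.23 to 6.56) in shMCT-1.

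Tapbp, H2-K1, Psmb9, Tap1, Psmb8, Tap2 and H2-D1 lie within 17:33915899-35267499. The 51 other tested genes of that interval did not share one direction: 14 were called higher and 9 lower within IgG (median log2 fold change 0.01), and 13 and 8 within anti-IL-6R (median 0.11). Of all tested genes 28.3% were called higher and 26.2% lower within IgG, and 26.9% and 27.3% within anti-IL-6R. Nothing more is read from the counts of the interval. Chromosome 8, with Psmb10 and Nlrc5, had median log2 fold changes of 0.07 in both comparisons over 710 tested genes.

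Anti-IL-6R did not change any member detectably. The question of whether IL-6R blockade alters the route within a background gave 0 of 9 calls in scramble cells, 0 of 9 in shMCT-1 cells, 0 of 9 for the interaction and 0 of 9 across both backgrounds with edgeR, where 0 of all 12704 tested genes were called in each (0% of the background). At an unadjusted p under 0.05, 0 members passed in scramble cells (1.31% of all genes did), 1 in shMCT-1 cells (3.98%), 0 for the interaction (2.48%) and 1 across both backgrounds (2.80%), and DESeq2 also called no member. The member that passed was Tapbp, which was higher with anti-IL-6R in shMCT-1 cells by a log2 fold change of 0.19 (95% interval 0.02 to 0.37, unadjusted p = 0.0358, adjusted p = 1.00). The intervals limit what could have gone unseen: for H2-K1 they ran from -0.18 to 0.26 in scramble and -0.16 to 0.28 in shMCT-1, for H2-D1 from -0.15 to 0.28 and -0.16 to 0.27, and for B2m from -0.36 to 0.05 and -0.16 to 0.25. They were wider for Tap1 (-0.15 to 0.74 and -0.68 to 0.18) and Nlrc5 (-0.40 to 0.69 and -0.46 to 0.56). For Psmb8 in scramble cells no direction is read, since no library held more than 4 counts.

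Other genes of the route were taken from lists of related genes. Of all 12704 tested genes, 28.3% were called higher and 26.2% lower within IgG, and 26.9% and 27.3% within anti-IL-6R. These shares are the background for the counts of each list, and no claim is made that a list stands apart. Of 17 other class I heavy chain genes 12 were tested, and 9 were called higher and 0 lower within IgG (median log2 fold change 0.81), and 7 higher and 1 lower within anti-IL-6R (median 0.61). Cd1d1, H2-T10 and Mr1 exceeded 1 CPM only in shMCT-1 libraries and so passed the filter through the group where they are high; over the other 9 tested genes the counts were 6 higher and 0 lower (median 0.77) and 4 higher and 1 lower (median 0.34). Cd1d1, which presents lipids to NKT cells, went from 0.124 to 0.254 CPM in scramble to 3.73 to 5.07 CPM in shMCT-1 (log2 fold changes of 4.59 and 4.29), and H2-M3, which presents formylated peptides, from 1.37 to 1.57 CPM to 4.33 to 6.86 CPM (2.09 and 1.93). H2-T22 and H2-T10, ligands of some γδ T cells, rose by 1.82 and 1.08 and by 1.56 and 1.43. The H2-T10 calls were lost without scramble + IgG replicate 2 (1.27), shMCT-1 + IgG replicate 2 (1.43), scramble + anti-IL-6R replicate 2 (1.12) or shMCT-1 + anti-IL-6R replicate 1 (0.87). H2-T23, which encodes the NK cell ligand Qa-1, was the gene called lower (-0.52, SE 0.13, edgeR adjusted p = 0.00900, within anti-IL-6R, and -0.33, adjusted p = 0.0576, within IgG); it is named because of that value.

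All 12 folding and peptide trimming genes were tested, with 5 higher and 4 lower in each comparison. Calls in both directions were also common among all tested genes (28.3% higher and 26.2% lower within IgG, 26.9% and 27.3% within anti-IL-6R). Among those higher in both, calreticulin (Calr) rose by 0.74 and 0.85 on the log2 scale within IgG and anti-IL-6R, Hspa5 (BiP) by 0.48 and 0.51, the glycoprotein quality sensor Uggt1 by 0.44 and 0.42, and calnexin (Canx) by 0.30 and 0.40. The peptidases Lnpep (-1.02 and -1.13), Nrd1 (-0.70 and -0.60) and Erap1 (-0.61 and -0.55) fell, as did the peptide editor Tapbpl (-0.81 and -0.55). The Canx calls were lost without shMCT-1 + IgG replicate 1 (0.29) or 2 (0.31) and without scramble + anti-IL-6R replicate 2 (0.38).

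Of the 9 proteasome partners and activators, all tested, 5 were higher and 2 lower in each comparison. The shares of all tested genes were 28.3% higher and 26.2% lower within IgG, and 26.9% and 27.3% within anti-IL-6R. The constitutive catalytic subunits Psmb5 (0.95 and 0.80) and Psmb6 (0.68 and 0.53) rose, as did the assembly factor Pomp (0.67 and 0.51) and the PA28 activator subunit Psme2 (0.73 and 0.55). Psme4, the PA200 activator, and the inhibitor Psmf1 fell (-0.43 and -0.37, and -0.33 and -0.39). Psmb7, the partner of Psmb10, was at 171 to 180 CPM in scramble and 161 to 178 CPM in shMCT-1 and was not called (0.01, SE 0.08, and -0.01, SE 0.08, with signs that turned under other settings). The Psme2 call within anti-IL-6R was lost without scramble + anti-IL-6R replicate 2 (0.50) or shMCT-1 + anti-IL-6R replicate 1 (0.40), that of Psme4 without scramble + anti-IL-6R replicate 2 (-0.36), and that of Psmf1 within IgG without shMCT-1 + IgG replicate 2 (-0.27).

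Among 26 regulators of class I genes 24 were tested, with 5 higher and 7 lower within IgG and 5 higher and 4 lower within anti-IL-6R (medians -0.03 and 0.00). Beside the shares of all tested genes (28.3% higher and 26.2% lower within IgG, 26.9% and 27.3% within anti-IL-6R), nothing is read from these counts about the list. Irf8, an interferon regulatory factor best known in myeloid and B cells, rose from 1.24 to 1.67 CPM to 10.7 to 12.2 CPM (log2 fold changes of 2.89 and 3.09). Levels of leukocyte markers are given above, and whether leukocytes had a part in this change was not tested. Rfxap of the X box complex rose by 0.39 and 0.52, and the histone methyltransferase Ezh2 by 0.39 and 0.48. Rfx5, the DNA-binding subunit of the same X box complex, fell from 22.2 to 23.9 CPM to 9.66 to 11.5 CPM (-1.22, SE 0.11, and -1.01, SE 0.11), and the kinase Jak1 (-0.97 and -0.88), Creb1 (-0.42 and -0.35) and Nfkb1 (-0.38 and -0.33) also fell. Irf1 was at 27.1 to 29 CPM in scramble and 31.1 to 33.8 CPM in shMCT-1 (0.21, edgeR adjusted p = 0.0766, and 0.25, adjusted p = 0.0409). That Irf1 call was lost under 10 alternatives, DESeq2 among them. Leaving out libraries also ended the calls of Rfxap within IgG (without scramble + IgG replicate 1, 0.26, or shMCT-1 + IgG replicate 1, 0.36) and Nfkb1 within anti-IL-6R (without scramble + anti-IL-6R replicate 2, -0.32). Creb1 lost its call without scramble + IgG replicate 2 (-0.29) or shMCT-1 + IgG replicate 1 (-0.32) within IgG, and without scramble + anti-IL-6R replicate 1 (-0.40) or 2 (-0.30) or shMCT-1 + anti-IL-6R replicate 1 (-0.23) within anti-IL-6R. The interferon genes on the list gave next to no reads, with Ifng at up to 0.145 CPM and Ifnb1 at 0. Other interferon genes were not examined.

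Most genes of the class II route were below the filter. Of its 11 listed genes 2 were tested, the invariant chain Cd74 (1.29 to 2.21 CPM in scramble and 17.7 to 23.7 CPM in shMCT-1, log2 fold changes of 3.82 and 3.65) and H2-DMa (1.21 to 1.54 CPM and 2.96 to 4.18 CPM, 1.48 and 1.43), and both were called higher in both comparisons. The shares of all tested genes called higher were 28.3% within IgG and 26.9% within anti-IL-6R. The class II chains H2-Aa, H2-Ab1 and H2-Eb1 did not exceed 0.0504 CPM, and Ciita, the class II counterpart of Nlrc5, did not exceed 0.256 CPM.

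**Figure D4:**
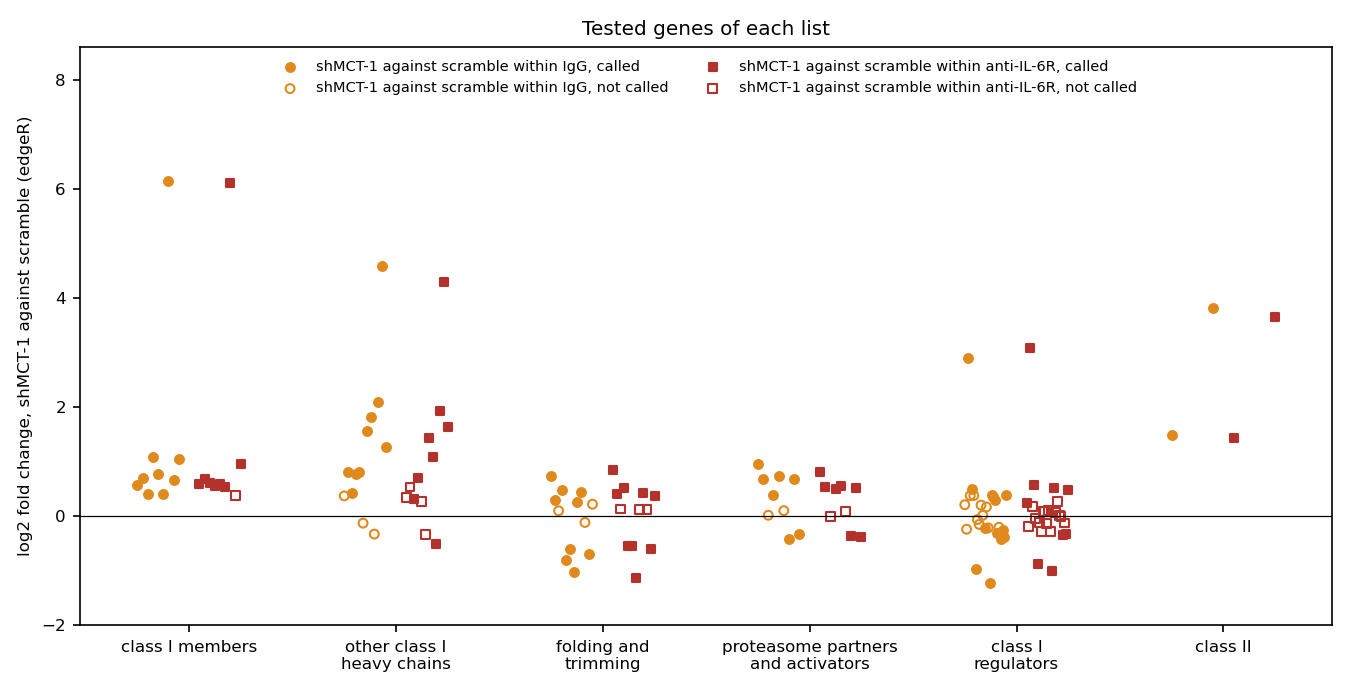
Log2 fold change between shMCT-1 and scramble cells (vertical axis, edgeR) of every tested gene of the members and of 5 lists of related genes, within IgG (circles) and within anti-IL-6R (squares); filled points were called at an adjusted p under 0.05. The members lie above 0, with Psmb8 far above the others, while the folding, proteasome and regulator lists hold called genes on both sides. Of all tested genes 54.4% were called in either direction within IgG and 54.3% within anti-IL-6R.

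The genes most like H2-K1 over the 8 libraries, by Pearson's r of log2 CPM, were Mmp10, Ctsb, Vim, Mt1 and Dad1 (r of 0.998 to 1.00), and those most like Nlrc5 were Soat1, Wfs1, Mical2, Ubl3 and Capza1 (0.985 to 0.997). With 2 backgrounds that differ in many genes an r above 0.9 was common: 2652 of 12629 ranked genes reached it with H2-K1 and 1390 with Nlrc5. The named genes are the top of these rankings, and nothing more is read from their r.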

How the data were processed

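Messenger RNA of 4T1 cells was sequenced in 8 libraries. Per the submitters' processing notes, reads were trimmed with cutadapt 1.18 and mapped to the mouse genome with STAR 2.7.0d. The authors deposited expected counts per gene from RSEM, which divides reads that fit several genes; 29.6% of the values above 0 were not whole, and all were rounded here. Identifiers were matched to GENCODE M21 on GRCm38 (54495 of 54532 without version numbers). CPM used library totals, and RPKM the length of the principal transcript.

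Genes over 1 CPM in at least 2 libraries were fitted with edgeR 4.0.16 in R 4.3.3 (TMM factors, quasi-likelihood test, 1 model of 4 groups without a replicate block), with Benjamini-Hochberg adjustment over 12704 genes. The script was tested on simulated data. The 95% intervals of low-count ratios are exact and cover counting error only. Replicates differed beyond counting noise, so none was merged. Chi-square over degrees of freedom was lowest in scramble + anti-IL-6R (4.36) and highest in scramble + IgG (27.8), while the fit shared 1 estimate of the spread among the 4 groups. Same-numbered libraries did not deviate together (r of -0.0797 to 0.106). The alternatives were DESeq2 1.42.0, edgeR's exact test, RLE size factors, other filters, a replicate block, thinning, fewer libraries and leaving out each library.

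The members and lists were chosen with earlier results of these data known. Every member is named; from each other list at most 4 genes per direction were named, those called in both shMCT-1 comparisons with the largest mean change, with Psmb5, Psmb6, Psmb7, Irf1, Rfx5, Ciita and Mcts1 added. A gene that this rule also names is not reported here. The reference genome is of C57BL/6, and its effect on counts of polymorphic H2 genes in a BALB/c line was not tested.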

Additional observations from a re-analysis of the deposited data

How the results depend on the processing

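The number of members called higher in shMCT-1 stayed at 8 to 9 within IgG and 6 to 9 within anti-IL-6R under 17 alternatives each, with 0 called lower, and 0 members were called for anti-IL-6R under any. With the replicate number as a block the counts were 9 and 8, and the block ended no call. Of 1626 values of single genes, 1562 kept direction and call, 39 lost and 5 gained a call and 20 changed sign, all of the last among values not called. Psmb7, near 0, changed sign within IgG with RLE factors (-0.0052), the 7-library filter (-0.00097), the 4 libraries compared alone (-0.00029), the exact test (-0.00030) and DESeq2 (-0.0052), and ran from -0.0022 to 0.024 when libraries were left out; within anti-IL-6R it was 0.0074 with filterByExpr and ran from -0.082 to 0.077. For anti-IL-6R against IgG, leaving out a library moved the log2 fold change across 0 for H2-K1 (-0.071 to 0.16 in scramble, -0.013 to 0.14 in shMCT-1), H2-D1 in scramble (-0.042 to 0.19), B2m in shMCT-1 (-0.022 to 0.12), Tap2 in scramble (-0.012 to 0.057), Psmb8 in scramble (-1.22 to 3.73, fitted on at most 4 counts a library), Psmb10 (-0.052 to 0.59 in scramble, -0.29 to 0.18 in shMCT-1) and Nlrc5 in shMCT-1 (-0.29 to 0.33). The log2 differences of the Psmb8 to Psmb5 and Psmb10 to Psmb7 ratios ran from 4.98 to 5.89 and 0.39 to 0.59 without single libraries, where p cannot pass the threshold. Depth limits Psmb9 and the scramble level of Psmb8. The cause of these changes was not tested.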
